A study of Mus musculus with 6 samples.

Results

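The genes described here encode the proteasome, and they were followed in mouse embryonic stem cells with and without the TET enzymes. They were chosen by name alone: every probe whose gene name is Psma, Psmb, Psmc, Psmd, Psme, Psmf or Psmg followed by a number, leaving out the immunoproteasome genes Psmb8, Psmb9 and Psmb10. The rule found 59 probes of 46 gene names among 34650 gene names on the array, and 45 of the 46 were measured well enough to be tested, among 21557 tested gene names in all. They comprise 16 core genes, 17 cap genes, 7 assembly factors, 5 activators and inhibitor genes, and Psmc3ip, a meiotic recombination factor that shares the start of the name but is no proteasome subunit.

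The proteasome is the protease that degrades most short-lived and damaged proteins of a cell after they have been tagged with ubiquitin. Its barrel-shaped core is built of alpha rings, which gate the entrance, and beta rings, which hold the cutting sites. The cap that sits on the core has a base of ATPases, which unfold and feed the substrate, and a lid, which removes the ubiquitin. Assembly factors bring the rings and the base together and are not part of the finished particle. When proteasome activity falls, the transcription factor NRF1, encoded by Nfe2l1, raises most subunit genes together, and in pluripotent cells high proteasome activity has been linked to self-renewal.

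The study compared total RNA of wild-type (WT) embryonic stem cells, line BJ FF2, with cells derived from that line that carry a triple knockout (TKO) of Tet1, Tet2 and Tet3. TET proteins are dioxygenases that oxidise methylated cytosine in DNA. Both groups were kept in 2i medium on inactivated mouse embryonic feeder cells, were freed of feeders, and were moved to matrigel before collection, with all cultures grown side by side. Each group has 3 samples, each from 1 dish, so n counts dishes of 1 parent line and of its knockout derivative, and p-values here measure the spread between dishes, not between independently made clones. How the alleles were altered is not given in the sources used here.

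Each sample was hybridised to a one-colour Agilent array, and the 6 arrays lay on 1 slide. The 75th percentile of the signal was 366.9 to 412.9 intensity units and 51.9% to 58.5% of spots were well above background. All WT arrays and TKO1 lay in the first row of the slide, TKO2 and TKO3 in the second. The label check gave a Tet1 level of 3.84, 3.88 and 3.81 in WT against 2.42, 2.52 and 2.47 in TKO (difference -1.37 ± 0.043 SE, limma adjusted p = 6.87e-06), and Tet2 differed by -2.93 ± 0.054 (SE, adjusted p = 1.98e-06). A probe outside the altered part of a gene checks nothing. Of 8 embryonic stem cell markers, 8 were above background on all arrays, 1 was higher and 5 were lower in TKO, and their summed level was 694 to 766 times the 75th percentile in WT and 607 to 662 times in TKO. Of 9 tested fibroblast markers, which feeder cells would carry, 9 were above background on all arrays, 7 were higher and 1 was lower in TKO. Their summed level was 22.1 to 22.8 times the 75th percentile in WT and 27.7 to 30.8 times in TKO. Most of that sum comes from Col1a1, Col1a2 and Thy1 (log2 means of 3.12, 3.36 and 3.07 in TKO). The other tested fibroblast markers had TKO means of -2.74 to -0.97, so changes in them hardly show in the sum. The marker that was lower was Pdgfrb (-2.26 on the log2 scale). Col1a1, which was higher (0.58), lies on chromosome 11, where 57.3% of tested genes outside the name rule were called higher. At the threshold given below, 30.0% of all tested genes were called higher and 29.7% lower. The part of either marker list in the results below was not tested, and in bulk RNA fewer cells of a type and less RNA per cell cannot be told apart.

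Levels are log2 signals from which the array's own 75th percentile was subtracted, a difference is TKO minus WT on that log2 scale, and a gene is called higher or lower where limma's Benjamini-Hochberg adjusted p, taken over all tested genes, was under 0.05. The proteasome genes changed in both directions and by small amounts. Of the 45 tested, 16 rose, 10 fell and 19 did not pass the test (16 and 9 with the mean of a gene's probes, since the probes of Psmd9 point opposite ways), where 30.0% of all tested genes were called higher and 29.7% lower. Their median difference was -0.03, against -0.01 for all tested genes, and the differences ran from -0.51 to 0.65. Of all tested genes, 2944 were called with a change of at least 2-fold, and 0 of the proteasome genes were. The median size of the difference, whatever its sign, was 0.18 for the proteasome genes and 0.30 for all tested genes. In 32 of the 45, the TKO values and the WT values did not overlap, a share of 71.1% where all tested genes gave 67.6%.

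These directions depend on how the arrays are put on 1 scale. When each array was centred on its median instead of its 75th percentile, the median of all tested genes moved from -0.01 to -0.21, and their calls from 6462 higher and 6397 lower to 3825 higher and 9486 lower, so that 28.7% rather than 50.3% of calls were higher. The proteasome genes then gave 9 higher and 24 lower. Differences between the proteasome genes and all genes are the same under both scalings, since each array is only shifted.

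**Figure D1:**
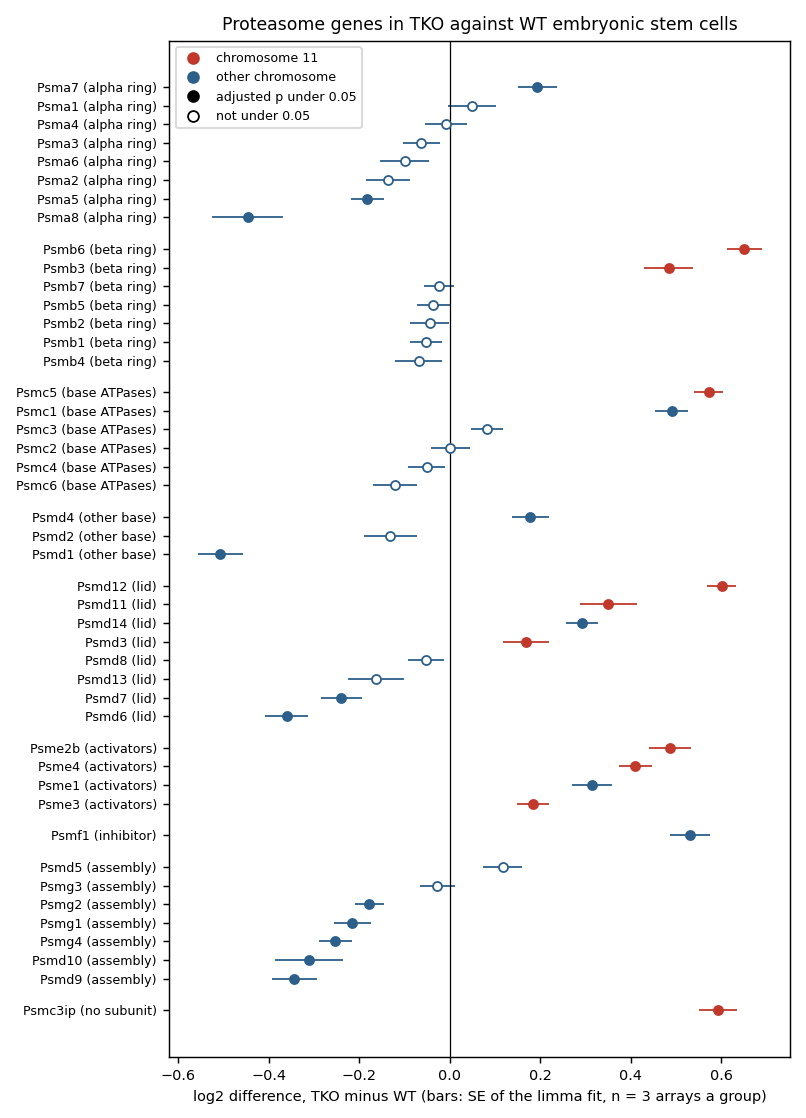
Log2 difference (TKO minus WT, horizontal axis) of the 45 tested genes of the name rule, grouped by their place in the proteasome. Points are limma estimates from 3 arrays a group with bars of 1 SE, filled where the adjusted p is under 0.05 and red for genes on chromosome 11. The 10 red points all lie right of 0, and of the beta ring only Psmb6 and Psmb3 are called.

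Most core genes did not pass the test. Of the 15 tested, 3 rose, 2 fell and 10 did not pass, a share called of 33.3% against 59.7% of all tested genes. Their median difference was -0.04. With median centring it was -0.25 and most core genes were called, mainly lower, where 13311 of all 21557 tested genes were called either way. In the alpha ring, which gates the chamber, 1 of 8 rose, 2 fell and 5 did not pass. Psma7 read 6.44, 6.46 and 6.37 in WT against 6.58, 6.66 and 6.61 in TKO, a rise of 0.19 ± 0.043 (SE, limma adjusted p = 0.0108). Every TKO value lay above every WT value, yet with median centring the difference was -0.0084. With the array row in the model it was 0.16, but that fit sets only TKO1 against WT and so cannot settle the call.

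Psma5, another structural alpha subunit, read 6.01, 5.99 and 6.06 in WT against 5.85, 5.82 and 5.84 in TKO, a fall of 0.18 on the log2 scale (-0.18 ± 0.036 SE, limma adjusted p = 0.00675). The groups did not overlap. With the array row in the model, which sets only TKO1 against WT, the difference was -0.17. Psma8, the alpha subunit that takes the place of Psma7 in the proteasome of male germ cells, was dim and read -1.70, -1.65 and -1.66 in WT against -2.05, -2.28 and -2.02 in TKO (-0.45 ± 0.078 SE, limma adjusted p = 0.00402). With normexp background correction the difference was -0.23 (adjusted p = 0.00209). All TKO values of Psma8 were below all WT values, whereas the median of 42 other tested genes within 5 Mb of it on chromosome 18 was 0.36. The other 5 alpha genes, Psma1, Psma2, Psma3, Psma4 and Psma6, differed by -0.14 to 0.05 and did not pass. With median centring Psma2 (-0.34), Psma3 (-0.26) and Psma6 (-0.30) were called lower, and Psma1 and Psma4 were not. Psma2 came nearest to passing, at -0.14 ± 0.049 (SE, limma adjusted p = 0.0546). It passed under 7 of 16 alternative settings, among them leaving out TKO1 (-0.17, adjusted p = 0.0406). Psma6 passed under 2 of 16, median centring and leaving out WT2 (-0.15, adjusted p = 0.0292).

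The beta ring split into 2 genes that rose and 5 that did not pass the test. Psmb6, the subunit with the caspase-like cutting site, read 7.41, 7.34 and 7.41 in WT against 8.04, 8.07 and 8.01 in TKO. Its rise of 0.65 ± 0.039 (SE, limma adjusted p = 5.86e-05), a 1.57-fold change, was the largest of all 45 genes. Psmb3, a beta subunit without a cutting site of its own, read 7.20, 7.27 and 7.28 in WT against 7.65, 7.80 and 7.75 in TKO (0.48 ± 0.053 SE, limma adjusted p = 0.000623). In both genes the 3 TKO dishes stood clear of the 3 WT dishes.

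The other cutting subunits did not pass the test. Psmb5, which carries the chymotrypsin-like site and is the target of proteasome inhibitor drugs, read 8.11, 8.06 and 8.10 in WT against 8.08, 8.05 and 8.03 in TKO (-0.04 ± 0.036 SE, limma adjusted p = 0.421). Psmb7, which carries the trypsin-like site, read 4.59, 4.56 and 4.59 in WT against 4.54, 4.56 and 4.57 in TKO (-0.02 ± 0.033 SE, limma adjusted p = 0.554). The groups overlapped in both. Psmb1, Psmb2 and Psmb4 differed by -0.07 to -0.04 and did not pass. With median centring these 5 genes differed by -0.27 to -0.23 and were all called lower. Psmb11, the beta subunit made in the thymus cortex, was above background on 0 of 6 arrays and was not tested.

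The cap gave 7 rises, 3 falls and 7 genes that did not pass among 17. The share called was 58.8% (41.2% higher and 17.6% lower), near the 59.7% of all tested genes (30.0% and 29.7%). The median of the cap was 0.00 (-0.20 with median centring) and its median size of the difference was 0.18, where the core had 0.07. Of the 6 ATPases of the base, the ring that unfolds the substrate, 2 rose and 4 did not pass. Psmc5 read 5.17, 5.17 and 5.18 in WT against 5.76, 5.75 and 5.72 in TKO (0.57 ± 0.033 SE, limma adjusted p = 4.80e-05). Psmc1 read 6.75, 6.76 and 6.77 in WT against 7.21, 7.28 and 7.25 in TKO (0.49 ± 0.036 SE, limma adjusted p = 0.000123). In both genes every TKO dish read above every WT dish, and the gap between groups was several times the spread within them. Psmc2, Psmc3, Psmc4 and Psmc6 differed by -0.12 to 0.08. None of these passed the test as defined above. Psmc6 passed under 4 of 16 alternative settings, among them leaving out WT2 (-0.16, adjusted p = 0.026).

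The other 3 base genes went separate ways. Psmd1, a scaffold subunit of the base, had the deepest fall of the 45 genes: it read 6.66, 6.57 and 6.70 in WT against 6.09, 6.15 and 6.17 in TKO (-0.51 ± 0.050 SE, limma adjusted p = 0.000371), a 1.42-fold lower level with no overlap. Psmd2, the other scaffold subunit, did not pass (-0.13 ± 0.058 SE, limma adjusted p = 0.101). It did under 3 of 16 alternative settings, among them leaving out WT1 (-0.18, adjusted p = 0.0293). Psmd4, a ubiquitin receptor, rose by 0.18 ± 0.041 (SE, limma adjusted p = 0.0124), which became -0.02 with median centring. The probe behind the Psmd1 value lies at chr1:88035777-88035836 (plus strand) in the mouse build mm9 used by the array files, and its first 30 of 60 bases are given to show which stretch of the transcript was read. No gene annotation of mm9 was used here, so whether it is coding is not stated.
Psmd1 probe: ccaagtctttggttaagaagatatacgact

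Of the 8 lid genes, 4 rose, 2 fell and 2 did not pass, where 30.0% of all tested genes were called higher and 29.7% lower. Psmd12, a structural lid subunit, read 6.22, 6.22 and 6.23 in WT against 6.82, 6.83 and 6.81 in TKO (0.60 ± 0.031 SE, limma adjusted p = 3.50e-05), the smallest adjusted p among the 45 genes. The dishes of a group were nearly level with each other, and the TKO level was 1.52-fold higher. Its probe at chr11:107358963-107359022 (mm9, plus strand) is shown because a second Psmd12 probe elsewhere on the transcript gave the same difference.
Psmd12 probe: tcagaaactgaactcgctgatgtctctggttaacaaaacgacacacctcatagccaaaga

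Psmd11, whose level has been linked to proteasome activity in human embryonic stem cells, read 3.33, 3.45 and 3.50 in WT against 3.77, 3.71 and 3.85 in TKO (0.35 ± 0.063 SE, limma adjusted p = 0.00464). Psmd14, the deubiquitinase that cuts the ubiquitin chain off the substrate, read 2.69, 2.66 and 2.65 in WT against 2.95, 2.94 and 3.00 in TKO (0.29 ± 0.036 SE, limma adjusted p = 0.000926). Neither gene's groups overlapped, and both lost their call with median centring (adjusted p = 0.228 for Psmd11 and 0.309 for Psmd14). Psmd3 was the least stable rise, at 0.17 ± 0.051 (SE, limma adjusted p = 0.0323). It passed under 6 of 16 settings, became -0.03 with median centring, and lost its call without any of WT2 (0.12), WT3 (0.19), TKO1 (0.15), TKO2 (0.18) or TKO3 (0.18).

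Psmd6, a structural lid subunit, read 4.50, 4.56 and 4.57 in WT against 4.11, 4.21 and 4.23 in TKO (-0.36 ± 0.047 SE, limma adjusted p = 0.00116). Psmd7, the partner of Psmd14 in the lid, read 4.91, 4.91 and 4.95 in WT against 4.66, 4.64 and 4.76 in TKO (-0.24 ± 0.045 SE, limma adjusted p = 0.00564). Both stayed below every WT value in every TKO dish, so the deubiquitinase and its partner differed in opposite directions. Psmd8 (-0.05) and Psmd13 (-0.16) did not pass. Psmd13 did under 5 of 16 alternative settings, among them leaving out WT2 (-0.21, adjusted p = 0.0302).

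All 5 activator and inhibitor genes rose, with a median of 0.41 (0.21 with median centring, where Psme1 lost its call and Psme3 became -0.02), where 30.0% of all tested genes were called higher. The groups did not overlap in any of the 5, as in 67.6% of all tested genes. Of the 5, 3 lie on chromosome 11, where 57.3% of other tested genes were called higher. Psmf1, which encodes PI31, a protein that inhibits the core in the test tube, read 0.60, 0.57 and 0.51 in WT against 1.13, 1.04 and 1.11 in TKO. The rise was 0.53 ± 0.044 (SE, limma adjusted p = 0.000193), 1.44-fold, and remained called under each of 16 settings at 0.33 to 0.57. Psme4, the nuclear activator of the proteasome that helps degrade histones, read 1.78, 1.79 and 1.73 in WT against 2.17, 2.15 and 2.20 in TKO (0.41 ± 0.037 SE, limma adjusted p = 0.000272). The Psmf1 probe, at chr2:151555353-151555412 (mm9, minus strand), is given because this is the largest rise among the genes not on chromosome 11.
Psmf1 probe: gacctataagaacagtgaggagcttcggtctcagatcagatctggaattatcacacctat

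Psme1, a subunit of the interferon-induced activator ring, rose by 0.31 ± 0.045 (SE, limma adjusted p = 0.00173), and Psme3, which forms the nuclear activator ring, by 0.18 ± 0.036 (SE, limma adjusted p = 0.00617). Psme2b read 4.91, 4.93 and 4.96 in WT against 5.49, 5.41 and 5.37 in TKO (0.49 ± 0.046 SE, limma adjusted p = 0.000331), with all TKO values above all WT values. Psme2b is a near-identical copy of Psme2, the partner of Psme1, and 0 probes on the array carry the name Psme2, so the signal of the pair cannot be told apart and its place on chromosome 11 is uncertain.

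Of the 7 assembly factors, 0 rose, 5 were called lower by their brightest probe and 2 did not pass. Over all tested genes, 30.0% were called higher and 29.7% lower. Among the 5 called lower, Psmd9 has a second probe called higher. The median of the 7 was -0.22 (-0.18 with the mean of a gene's probes and -0.42 with median centring). That of all tested genes was -0.01 (-0.21 with median centring). The chaperones of the alpha ring, Psmg1 to Psmg4, made up most of the falls. Psmg4 read 2.52, 2.52 and 2.56 in WT against 2.24, 2.29 and 2.30 in TKO (-0.25 ± 0.036 SE, limma adjusted p = 0.00179). Psmg1 fell by 0.22 on the log2 scale (-0.22 ± 0.040 SE, limma adjusted p = 0.00536) and its partner Psmg2 by 0.18 (-0.18 ± 0.032 SE, limma adjusted p = 0.00435). The TKO values of these genes lay below all WT values, while Psmg3, the partner of Psmg4, overlapped (-0.03 ± 0.038 SE, limma adjusted p = 0.567).

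The chaperones of the base are Psmd5, Psmd9 and Psmd10. Psmd10, also known as gankyrin, read 0.79, 0.93 and 1.01 in WT against 0.52, 0.69 and 0.58 in TKO (-0.31 ± 0.076 SE, limma adjusted p = 0.0147), with the groups close but not overlapping. Psmd5 was 0.12 ± 0.042 higher in TKO and did not pass (SE, limma adjusted p = 0.0580). Psmd9 read 1.43, 1.33 and 1.43 in WT against 0.99, 1.08 and 1.09 in TKO (-0.34 ± 0.049 SE, limma adjusted p = 0.00183) with its brighter probe, but its probes contradict each other.

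**Figure D2:**
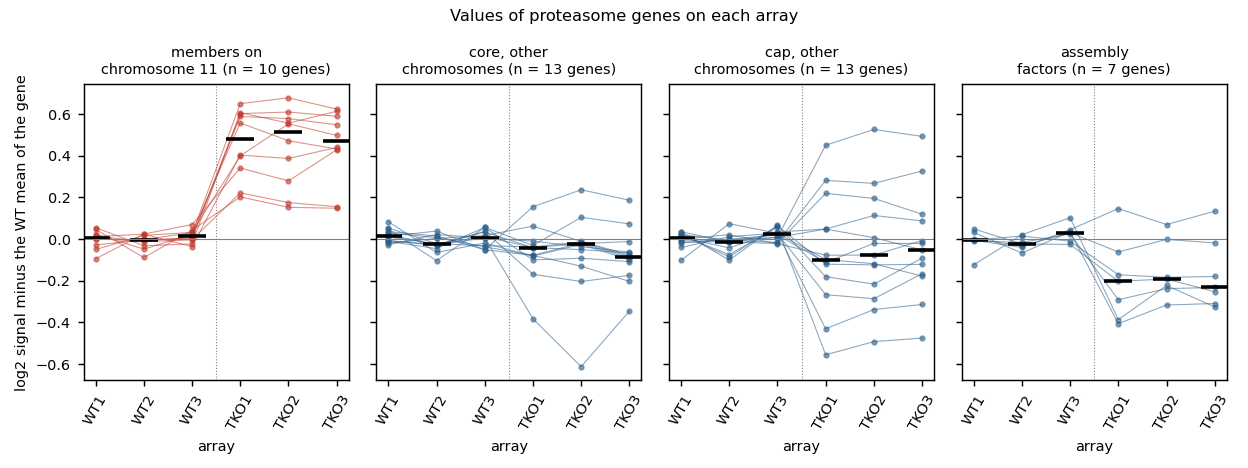
Log2 signal of each gene minus its WT mean (vertical axis) on the 6 arrays (horizontal axis), for the 10 genes on chromosome 11, the 13 core and 13 cap genes elsewhere, and the 7 assembly factors. Thin lines join the values of 1 gene and black bars are medians over genes; Psme1 and Psmf1 are not drawn. The chromosome 11 genes are above 0 on every TKO array, and the median of the assembly factors lies at -0.20, -0.19 and -0.23 on TKO1, TKO2 and TKO3.

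The classes kept their order on every TKO array, with the cap and the core close together. Relative to the WT mean of each gene, the class medians on TKO1, TKO2 and TKO3 were 0.40, 0.39 and 0.43 for activators and inhibitor, 0.05, 0.01 and -0.01 for the cap, -0.04, -0.02 and -0.08 for the core, and -0.20, -0.19 and -0.23 for the assembly factors. TKO1 lay in the same slide row as the WT arrays, and its medians are thus those within a row. On the WT arrays the class medians ran from -0.02 to 0.03. Without the genes of chromosome 11, the core and the cap both had a median difference of -0.05.

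Several genes were read by more than 1 probe. There were 12 with 2 kept probes each, which are measurements of the same RNA and not replicates, and probe-level calls were made over all kept probes. Of those, 57.1% were called (28.9% higher and 28.2% lower) and 65.8% had groups that did not overlap. The probes gave nearly the same difference in Psmd12 (0.60 and 0.60), Psmc1 (0.49 and 0.43), Psme2b (0.49 and 0.41) and Psmd10 (-0.31 and -0.32). In Psme4 (0.41 and 0.53) and Psmg1 (-0.22 and -0.16) both were also called the same way. Psmg2 gave -0.18 with both, but its dimmer probe did not pass (limma adjusted p = 0.0779). In Psma4, Psmb5, Psmc2 and Psmc3 neither probe passed.

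Psmd9 was the exception. Its brighter probe, at chr5:123691881-123691940 (mm9, plus strand), differed by -0.34 ± 0.051 (SE, limma adjusted p = 0.00235 over probes). Its dimmer probe, at chr5:123698524-123698583, read -0.25, -0.20 and -0.24 in WT against 0.11, -0.02 and 0.12 in TKO, a difference of 0.30 ± 0.052 (SE, limma adjusted p = 0.00423 over probes). Each probe separated the groups without overlap, in opposite directions, and their mean gave -0.02 (adjusted p = 0.641), so no direction is given for Psmd9 RNA as a whole. The probes lie in different places along the gene, and the second is shown by its first 30 of 60 bases.
Psmd9 brighter probe: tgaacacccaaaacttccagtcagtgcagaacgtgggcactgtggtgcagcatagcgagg
Psmd9 dimmer probe: tgatttgtgcctagctacgtcttgtgcaaa

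**Figure D3:**
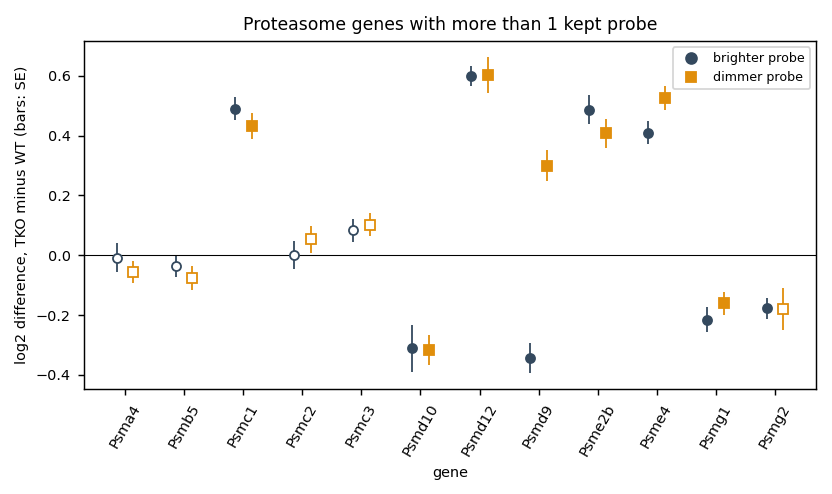
Log2 difference (TKO minus WT, vertical axis) of the 12 genes with 2 kept probes (horizontal axis), with the brighter probe as a circle and the dimmer as a square. Bars are 1 SE of the probe-level limma fit on 3 arrays a group and filled marks have an adjusted p under 0.05. Of the 12, Psmd9 alone has called probes on opposite sides of 0, at -0.34 and 0.30.

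Of the 16 genes that rose, 10 lie on chromosome 11 by probe position, and they are all the tested genes of the rule found there: Psmb3, Psmb6, Psmc5, Psmd3, Psmd11, Psmd12, Psme2b, Psme3, Psme4 and Psmc3ip. All 10 rose and none of their groups overlapped, with a median difference of 0.49. The other tested genes of chromosome 11 were shifted the same way: of 1606, 71.2% were called, 57.3% higher and 13.9% lower, with a median of 0.34, and 76.8% had groups that did not overlap. Psmc3ip, which has no part in the proteasome, read 1.79, 1.71 and 1.71 in WT against 2.34, 2.29 and 2.35 in TKO (0.59 ± 0.042 SE, limma adjusted p = 0.000102), a rise of the size seen in Psmd12 and Psmb6. With median centring, 7 of the 10 were called higher and 8 were above 0, the exceptions in sign being Psmd3 (-0.03) and Psme3 (-0.02).

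Away from chromosome 11 the balance was different. Of the 35 genes there, 6 rose, 10 fell and 19 did not pass, with a median of -0.05, where 27.8% of 19903 other genes were called higher and 31.0% lower (58.7% in all), with a median of -0.03. The groups did not overlap in 22 of the 35, a share of 62.9% against 66.8% of those other genes. The 6 that rose were Psmf1, Psmc1, Psme1, Psmd14, Psma7 and Psmd4. Without chromosome 11, the core stood at 1 higher and 2 lower of 13 and the cap at 3 higher and 3 lower of 13, both with a median of -0.05. The assembly factors have no gene on chromosome 11, and of the activators and inhibitor Psme1 and Psmf1 lie elsewhere. With median centring, the 45 genes gave 9 higher, 7 of them on chromosome 11, and 24 lower, all of them elsewhere. Psme1 (0.11) and Psmd14 (0.09) then lost their calls, and Psma7 (-0.0084) and Psmd4 (-0.02) turned in sign.

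The surroundings of each gene were measured as the median difference of the other tested genes within 5 Mb, over 38 to 320 genes. For the chromosome 11 genes Psmb6 (0.36 around it), Psmd12 (0.35), Psmc5 (0.37), Psmc3ip (0.37) and Psmb3 (0.39) the surroundings were high and the gene higher still. Psmd11 (0.48), Psme3 (0.37) and Psmd3 (0.38) rose by less than their surroundings. Around Psme4 the median was 0.07 and around Psme2b 0.18. Psmd7, on chromosome 8, fell by 0.24 on the log2 scale amid surroundings of -0.27, on a chromosome whose 1171 other tested genes had a median of -0.22. Outside chromosomes 8 and 11, the surroundings were at 0.03 for Psmf1, 0.10 for Psmc1 and 0.09 for Psmd14, which rose, and at -0.10 for Psmd6 and -0.15 for Psmd1, which fell. Of the assembly factors called lower, Psmg2 differed by -0.18 in surroundings of -0.13 and Psmg4 by -0.25 in surroundings of -0.09. The surroundings were at -0.03 for Psmd9, 0.03 for Psmd10 and 0.05 for Psmg1. Psma8 fell in surroundings of 0.36. Neighbouring genes share a chromosome and the arrays, so these are descriptions without a test, and the part of the chromosome-wide shift in each gene's difference was not tested.

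**Figure D4:**
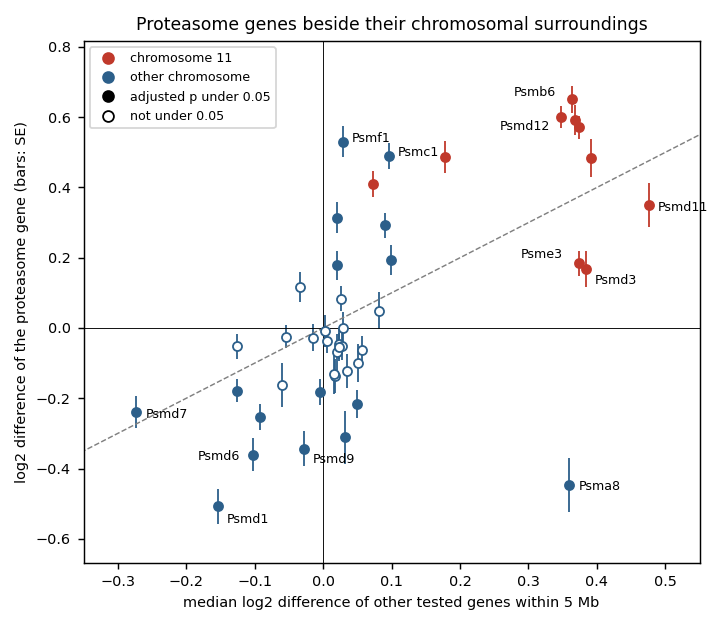
Log2 difference of each of the 45 tested genes (TKO minus WT, vertical axis, bars 1 SE, n = 3 arrays a group) against the median log2 difference of the other tested genes within 5 Mb (horizontal axis). Red marks are on chromosome 11, filled marks have an adjusted p under 0.05, and the dashed line marks equality. Of the red points, 7 lie above the line and Psmd11, Psme3 and Psmd3 below it, while Psmf1 (0.53) and Psmc1 (0.49) are high where their surroundings are at 0.03 and 0.10.

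Promoters were examined because subunit genes share known regulators. Of the 46 genes, 38 matched a RefSeq promoter by symbol (build GRCm38.p6), giving 40 windows of 250 bases before a start. Searched on both strands were CCAAT, the box bound by NF-Y, and TGACNNNGC, the core of the antioxidant response element bound by NRF1 and its relative NRF2. Matches to the patterns may overlap each other. CCAAT was found in 35.0% of the 40 windows and in 33.8% of 32851 windows of all genes, and TGACNNNGC in 12.5% and 10.2%. The median count of CpG dinucleotides, the sites of DNA methylation, was 15 in the proteasome windows against 6 in all windows. All windows cover 27025 genes, more than the 21557 gene names tested on the arrays. Windows of tested genes alone were not compared, so these contrasts may not be particular to proteasome genes. A match of letters is a description and not evidence of binding, and methylation was not measured here.

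The windows of Psmd12 and Psmc1, a lid and a base gene that rose, and of Psmd1, which fell most, are printed plus strand, 5′ to 3′, with matches in capitals. They end just before the start of the gene model. Their coordinates are GRCm38.p6 and cannot be set against the mm9 positions of the probes. Psmd12 (chr11:107479278-107479527) holds 1 match to TGACNNNGC on the minus strand and 18 CpG, Psmc1 (chr12:100109952-100110201) holds 1 CCAAT and 14 CpG, and Psmd1 (chr1:86064369-86064618) holds neither pattern and 12 CpG.
Psmd12 promoter: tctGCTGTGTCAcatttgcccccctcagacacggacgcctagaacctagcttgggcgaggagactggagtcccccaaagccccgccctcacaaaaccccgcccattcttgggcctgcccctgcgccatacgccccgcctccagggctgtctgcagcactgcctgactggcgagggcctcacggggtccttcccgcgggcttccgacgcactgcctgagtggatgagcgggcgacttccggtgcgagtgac
Psmc1 promoter: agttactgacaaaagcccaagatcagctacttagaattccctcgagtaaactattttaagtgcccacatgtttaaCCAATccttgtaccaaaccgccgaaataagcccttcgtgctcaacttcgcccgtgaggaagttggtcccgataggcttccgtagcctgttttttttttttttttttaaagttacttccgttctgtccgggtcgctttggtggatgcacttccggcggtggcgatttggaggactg
Psmd1 promoter: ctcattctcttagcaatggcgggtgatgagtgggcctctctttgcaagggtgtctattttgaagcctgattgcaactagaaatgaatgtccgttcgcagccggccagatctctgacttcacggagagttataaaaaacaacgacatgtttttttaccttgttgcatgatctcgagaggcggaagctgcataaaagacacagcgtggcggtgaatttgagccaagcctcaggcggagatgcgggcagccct

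The proteasome's partners in the ubiquitin pathway were described from a list of 38 names, of which 36 were tested. Of the 33 that are not immunoproteasome genes, 13 rose, 6 fell and 14 did not pass, with a median of 0.07. These are 39.4% higher and 18.2% lower, where 30.0% and 29.7% of all tested genes were. Of its 6 transcriptional regulators, 4 rose, 1 fell and 1 did not pass. Nfe2l1, which encodes NRF1, read -0.88, -0.68 and -0.64 in WT against 0.31, 0.20 and 0.18 in TKO (0.96 ± 0.079 SE, limma adjusted p = 0.000186), with surroundings of 0.38 on chromosome 11. Nfe2l2, which encodes NRF2, rose by 0.33 ± 0.041 (SE, limma adjusted p = 0.00103), a call lost with median centring (0.13). Keap1, the adaptor that targets NRF2 for degradation, fell by 0.55 on the log2 scale (-0.55 ± 0.10 SE, limma adjusted p = 0.00515). With the array row in the model, which sets only TKO1 against WT, Keap1 differed by -0.47. The groups did not overlap in 5 of the 6 regulators, these included and Nfya being the exception, where 67.6% of all tested genes did not overlap.

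Among the shuttle factors and the segregase, which extract and carry ubiquitinated proteins, 5 of 11 rose and 1 fell. Vcp, the segregase itself, rose by 0.54 ± 0.048 (SE, limma adjusted p = 0.000259) and its cofactor Nploc4, on chromosome 11, by 0.75 ± 0.042 (SE, limma adjusted p = 4.53e-05). Of 6 genes of ubiquitin and its activation, 1 rose and 1 fell. Of 10 associated factors, 3 rose and 3 fell: Txnl1, a thioredoxin-like protein bound to the cap, fell by 0.64 (-0.64 ± 0.049 SE, limma adjusted p = 0.000143) and Adrm1, a ubiquitin receptor of the base, by 0.29 (-0.29 ± 0.039 SE, limma adjusted p = 0.00137). Pomp, the maturation factor of the core, did not pass (0.05 ± 0.039 SE, limma adjusted p = 0.368).

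The products of the 3 immunoproteasome genes replace the cutting beta subunits in interferon-treated and immune cells. Psmb9 and Psmb10 were called lower, and Psmb8 is described without a test. Psmb8 read -5.04, -4.68 and -5.11 in WT against -2.39, -2.89 and -2.40 in TKO. It was well above background on 1 of 3 WT arrays and on 3 of 3 TKO arrays, so it passed the filter through the TKO arrays and its difference is given without a test. That difference was 2.39, and 0.85 with normexp background correction. Psmb9, its neighbour on chromosome 17, fell by 0.87 on the log2 scale (-0.87 ± 0.047 SE, limma adjusted p = 3.81e-05), and Psmb10, on chromosome 8, fell by 0.23 (-0.23 ± 0.033 SE, limma adjusted p = 0.00188) in surroundings of -0.27. The standard subunits that these 3 replace, Psmb5, Psmb6 and Psmb7, differed by -0.04, 0.65 and -0.02.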

How the data were processed

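RNA of 3 WT and 3 TKO dishes was labelled with Cy3 and hybridised to one-colour arrays, scanned and read with Agilent Feature Extraction 11.5.1.1 per the submitters' processing notes. The deposited processed signals are intensity values on a linear scale, background-subtracted within each array and not scaled between arrays, per the file headers. The deposited flags (well above background, saturated, outlier) are 0 or 1. The authors' deposited table of processed values matched the log2 processed signal of each array up to a constant (Pearson r 1 over 55681 probes, with column medians from -4.03 to -3.74 and every 75th percentile at 0), a scale that no label or header names, and it served as an alternative.

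Each array held 62976 spots, 59305 of them no controls, for 55681 probes, and 0 were saturated. The log2 signal minus the 75th percentile of the array over non-control spots was averaged per probe, without outlier spots. Probes well above background on at least 3 of 6 arrays in all were kept (30724), the brightest kept probe stood for each gene name, and 21557 gene names were tested with limma 3.58.1 (lmFit, eBayes) in R 4.3.3, two-sided, with Benjamini-Hochberg adjustment and a threshold of 0.05. The fit was tested on simulated data. With 3 arrays a group, their number limits the precision of each value.

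Gene names come from the array's design and can be old, and probe positions are on mm9 per the file headers. The members, classes and lists were chosen with earlier results of these data known. Array values are given for proteasome genes called with a difference of at least 0.5, for the 3 largest called rises and falls of each class, and for genes below background or with probes in opposite directions. Of the wider list, up to 5 called rises and 5 called falls are named, with Nfe2l1, Nfe2l2, Pomp and the immunoproteasome genes. Some genes that this naming rule selects are not reported here. Alternatives were normexp background correction (offset 50), quantile normalization, median centring, no or a stricter filter on dim probes, the mean of a gene's probes, the deposited table, the replicate number or the array row as a block, robust eBayes with a trend, leaving out chromosomes 8 and 11, and leaving out each array.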

Additional observations from a re-analysis of the deposited data

How the results depend on the processing

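Of the 16 rises and 10 falls among the proteasome genes, leaving out each array in turn left 15 to 16 and 10 to 13, with 11535 to 12463 calls among all genes and class medians of -0.056 to -0.025 (core), -0.021 to 0.028 (cap), -0.23 to -0.19 (assembly) and 0.39 to 0.42 (activators and inhibitor). Median centring gave 9 rises, 24 falls and medians of -0.25 (core), -0.20 (cap), -0.42 (assembly) and 0.21 (activators and inhibitor), and it turned the sign of Psma1 (-0.15), Psma7 (-0.0084), Psmc2 (-0.20), Psmc3 (-0.12), Psmd3 (-0.034), Psmd4 (-0.023), Psmd5 (-0.085), Psme3 (-0.017) and Pomp (-0.16), since it shifts all genes. Normexp correction moved the cap to -0.023, assembly to -0.25 and activators and inhibitor to 0.37, shrank the differences of the dim Psma8 (-0.23) and Psmb8 (0.85), and turned Psmb7 (0.014) and Psmc2 (-0.031). Quantile normalization moved the core to -0.011 and turned Psma4 (0.0028) and Psmb5 (0.018). The mean of a gene's probes moved the cap to 0.027, assembly to -0.18 and activators and inhibitor to 0.45. The deposited table moved the core to -0.073, the cap to -0.023 and activators and inhibitor to 0.39 and turned Psmc2 (-0.023). The array row as a block, which sets only TKO1 against WT, moved the cap to 0.048 and turned Psma1 (-0.030) and Psma4 (0.062). Leaving out single arrays turned Psmc2 (-0.0225 to 0.0275) and Psma4 (-0.044 to 0.0256). The deposited table matched the log2 signal of each array up to a constant, so it too shifted all genes nearly alike. For example, Psmb6 went from 0.65 to 0.63 and Adrm1 from -0.29 to -0.31. Apart from median centring and the deposited table, the causes were not tested. Without chromosomes 8 and 11 there were 6 rises and 9 falls, and the cap was at -0.052. The genes left out include all 10 of chromosome 11, each called higher, 4 of them in the cap. Apart from Psma7, Psmd3, Psmd4 and Psme3, each sign change was in a gene that did not pass the test. The WT and TKO samples share replicate numbers, which the labels do not say mark a batch. Same-numbered samples did not deviate together across all genes (correlations of -0.07, -0.02 and 0.01). A correlation over all genes cannot show whether a shared batch touched some of them. With the replicate block, 15 rises and 10 falls remained in number (11616 calls among all genes), and Psmd3 lost its call (adjusted p = 0.0589). Psmb11 and dim genes such as Psma8 and Psmb8 are limited by signal over background.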
